A study of Mus musculus with 17 samples.

Results

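Oxidative phosphorylation is carried out by complexes built from 2 genomes, and its protein genes were followed here through 17 mouse RNA-seq libraries. Genes were taken by name: nuclear symbols that begin with Nduf followed by a, b, c, s or v, with Cox4 to Cox8, with Atp5 or with Uqcr, pseudogenes marked -ps left out, together with the protein-coding genes of the mitochondrial DNA. Of 55491 genes in each table, 107 matched, 94 nuclear and 13 mitochondrial. A mean of at least 5 CPM (counts scaled to the size of the library) over the libraries of a table was kept by 94 of the 107 in B cells and by 94 in BMDC, in each case 81 nuclear and 13 mitochondrial. The 13 below that level were all nuclear, and 9 of them were complex IV genes, most of them isoforms known from muscle, lung or testis. By complex, the 81 nuclear genes were 37 for complex I, 7 for complex I assembly factors, 8 for complex III, 12 for complex IV and 17 for ATP synthase. The name rule kept Ndufb4c, which the annotation gives as a processed pseudogene, with the complex I genes.

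Of the 17 libraries, 9 came from splenic B cells and 8 from BMDC, dendritic cells that were raised in culture from marrow and that present antigen to T cells. Each cell type had an untreated group (Control), a group given MSA2, an agonist of the innate immune sensor STING, and a group given MSA2 with IPI-549, an inhibitor of the kinase PI3K gamma. All groups had 3 libraries except the BMDC group with both agents, which had 2. There was no group with IPI-549 alone, and no dose, time or age is given in the sources used here. The series text names KPC mice, a pancreatic cancer model, as the source of all cells, whereas the genotype label of all libraries reads WT. The labels do not say whether libraries of a group came from separate animals or cultures, so the p-values below measure the spread between libraries, which may be technical.

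In the respiratory chain, complexes I, III and IV pass electrons to oxygen and pump protons across the inner mitochondrial membrane, and ATP synthase lets the protons return while it makes ATP. The mitochondrial DNA encodes a few hydrophobic core subunits of these complexes, transcribed inside the organelle by its own RNA polymerase with the factor Tfam, whereas the other subunits are nuclear and are imported as proteins. Activated B cells and dendritic cells are known to shift between respiration and glycolysis.

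Library totals ran from 34760025 to 73166643 counts. The B cell libraries of the MSA2 group stood apart from the other B cell libraries by their markers. Summed over 12 B cell markers, they held 4738 to 5217 CPM, against 9033 to 9930 in the other B cell libraries. In the same 3 libraries the summed T cell markers (12 genes) reached 1203 to 1600 CPM against 50.6 to 85.6, neutrophil markers (11 genes) 1543 to 1623 against 0.352 to 33.3, and monocyte and macrophage markers (10 genes) 1336 to 1518 against 38.9 to 58.9. Natural killer cell markers (10 genes) reached 561 to 649.8 against 9.53 to 25.9 CPM, and erythroid markers (9 genes) 1059 to 1232 against 18.3 to 45.1. None of these markers was at 0 in all 3 MSA2 libraries, whereas Elane was at 0 in all libraries of both other B cell groups, Cpa3 in Control, and Cd3e, Mcpt8, Fcer1a and Prss34 in the group with both agents. In bulk RNA, fewer cells of a type and less RNA per cell cannot be told apart. The BMDC libraries held B cell markers at 95.9 to 128 CPM and monocyte and macrophage markers at 13287 to 18671 CPM. The dendritic cell list (13 genes, which includes antigen presentation genes that B cells also express) did not single out BMDC, with 12403 to 15265 CPM there, 22612 to 24496 in B cells of the other 2 groups and 11307 to 14108 in B cells given MSA2.

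Several mitochondrial genes have a copy in the nuclear genome, in 1 block of unprocessed pseudogenes on the minus strand of chromosome 1, from 24611535 to 24616197 (GRCm38, GENCODE M21). The transcripts of Gm10925, Gm28661, Gm28437, Gm28438, Gm28439 and Gm10222 were identical to mt-Atp6, mt-Co2, mt-Co3, mt-Nd3, mt-Nd4 and mt-Nd4l over the aligned 678, 681, 783, 342, 876 and 294 bases. Gm29216 matched mt-Co1 over 483 bases with 1 difference. The stretch around that difference is shown because it is the one base in the aligned part of these copies that could tell a read of the copy from a read of the mitochondrial gene (GENCODE M21 transcripts, differing base in capitals):
mt-Co1, transcript bases 1063 to 1122: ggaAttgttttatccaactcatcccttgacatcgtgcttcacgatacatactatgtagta
Gm29216, transcript bases 10 to 69: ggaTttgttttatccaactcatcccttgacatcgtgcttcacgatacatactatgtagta
The deposited counts were divided between such pairs. Of the CPM of gene and copy together, the copy held 87.4 to 96.2% for mt-Nd4l, 82.4 to 87.8% for mt-Nd3, 63.7 to 72.9% for mt-Atp6, 58.9 to 72.998% for mt-Co2 and 45.0 to 53.8% for mt-Co3, over the 17 libraries. For mt-Nd4, whose copy covers part of the gene, it held 2.65 to 9.33%, and for mt-Co1 0.237 to 1.86%. The level of a mitochondrial gene with such a copy is therefore given below for the gene alone, and results that differ after adding the copy are named.

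**Figure D1:**
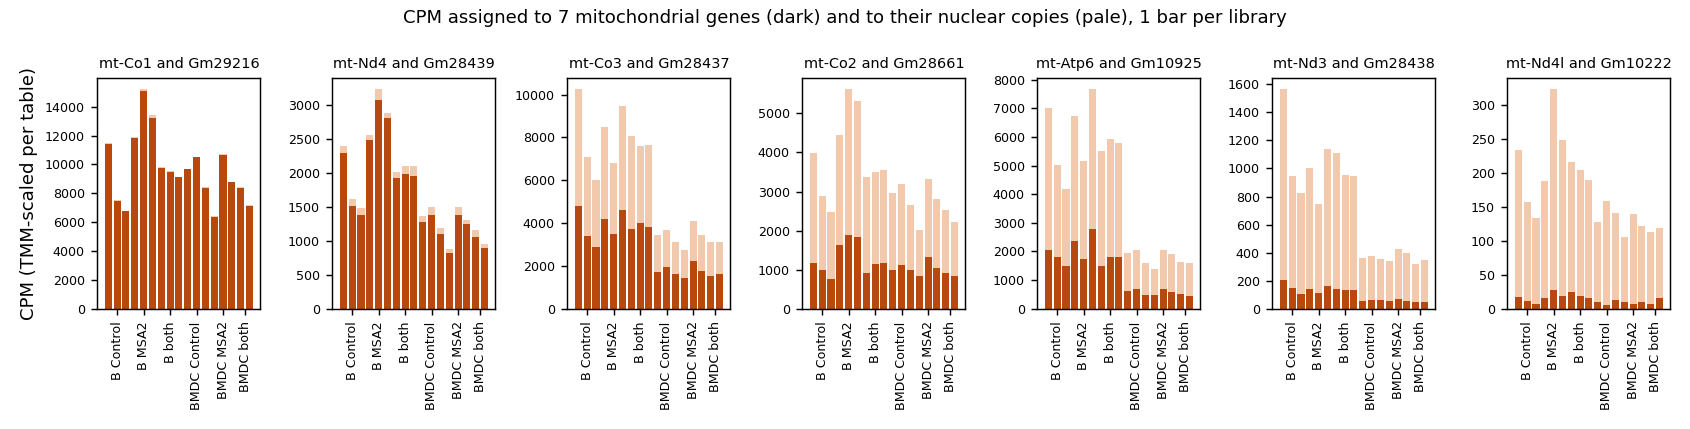
CPM (linear axes, TMM-scaled within each cell type's table) of 7 mitochondrial genes (dark) stacked with the nuclear copy of each (pale), 1 bar per library in the order of the groups; both means MSA2 with IPI-549. The copy takes most of the signal for mt-Nd4l, mt-Nd3, mt-Atp6 and mt-Co2 and under 2% (at most 1.86%) for mt-Co1.

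Per kilobase of transcript, with copies added, the highest of the 13 genes in untreated B cells was mt-Co3 at 9921 CPM per kb, followed by mt-Atp6 at 7940 and mt-Co1 at 5551 (means of 3 libraries). Lowest were mt-Nd4l at 586 and mt-Nd6, the gene on the other strand of the mitochondrial DNA, at 740.2. In untreated BMDC, mt-Co1 led at 6187 CPM per kb, followed by mt-Co3 at 4328 and mt-Co2 at 4288, and mt-Nd6 was lowest at 376. For the gene alone, mt-Co1 was highest in both cell types, at 5519.97 CPM per kb in B cells (mt-Co3 4722, mt-Atp6 2618) and 6167 in BMDC, and mt-Nd4l was lowest in both, so the order in B cells depends on whether the copies are counted.

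Untreated BMDC differed from untreated B cells in opposite ways for the nuclear and the mitochondrial genes. Of the 81 nuclear genes, 67 were higher in BMDC and 6 lower, where 39.3% of all 17740 genes tested were higher and 40.6% lower. Of the 13 mitochondrial genes, 9 were lower in BMDC and none was higher. The median log2 fold change was 0.69 for the nuclear genes and -0.77 for the mitochondrial genes, beside -0.07 for all genes tested. The cell types were deposited as separate tables with separate library numbering, so cell type and table cannot be told apart in this comparison.

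For this comparison, CPM were scaled over both tables together, whereas CPM elsewhere were scaled within the table of 1 cell type. The summed CPM of the 81 nuclear genes were 9595, 10238 and 9724 in the BMDC Control libraries and 6242, 6309.7 and 6520.4 in those of B cells. For the 13 mitochondrial genes the sums were 20264, 22278 and 17937 CPM in BMDC and 33185, 23311 and 20154 in B cells. The nuclear sums did not overlap, and the mitochondrial sums did, since BMDC replicates 1 and 2 lay above the lowest B cell library. With the nuclear copies added, the mitochondrial sums did not overlap either, and the lowest B cell library lay just above BMDC replicate 2. B cell Control replicate 1 had the highest mitochondrial sum of its group, and the ratio of the mitochondrial to the nuclear sum was 5.32, 3.69 and 3.09 in B cells and 2.11, 2.18 and 1.84 in BMDC.

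**Figure D2:**
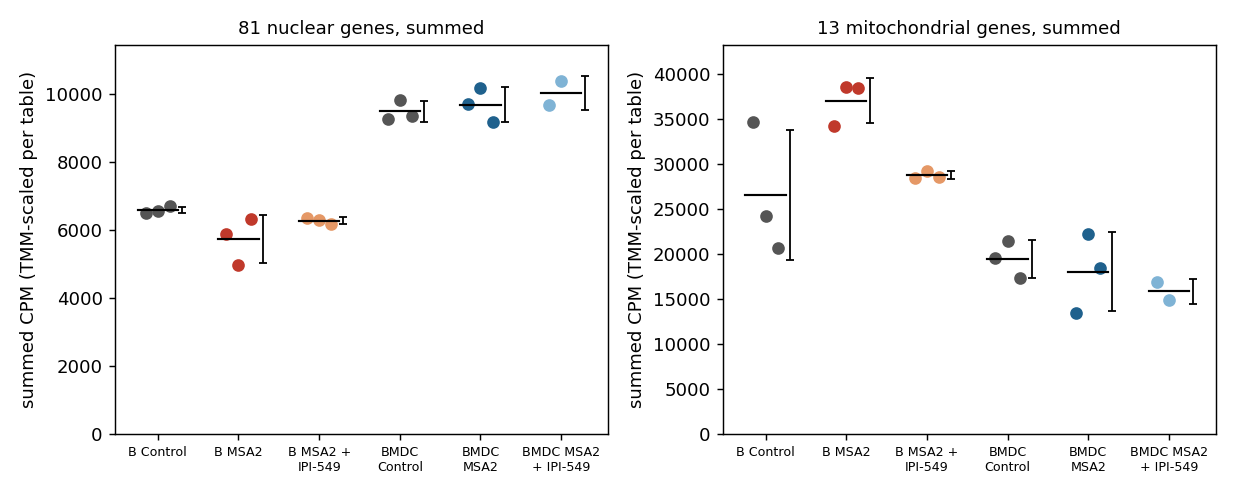
Summed CPM (linear axes from 0, TMM-scaled within each cell type's table) of the 81 nuclear and the 13 mitochondrial genes, 1 point per library; short lines are group means and error bars SD (n = 3, or 2 for BMDC with both agents). The nuclear sums of all BMDC libraries, from 9188 to 10394 CPM, lie above those of all B cell libraries, with the cell types on separate scales. Scaled over both tables, the Control sums are 9595 to 10238 CPM in BMDC and 6242 to 6520 in B cells. The 3 B cell MSA2 libraries have mitochondrial sums of 34169 to 38495 CPM.

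Every nuclear group had more genes higher than lower in BMDC. Complex IV had the highest median, 0.86, with 10 of 12 higher and 1 lower. Complex I had 31 of 37 higher and 2 lower (median 0.73), complex III 7 of 8 and 1 (0.69), ATP synthase 14 of 17 and 0 (0.66), and the complex I assembly factors 5 of 7 and 2 (0.36). Cox5a, a structural subunit of complex IV that faces the matrix (chr9:57521274-57532426), had the largest difference. It measured 209, 218 and 219 CPM in BMDC and 60.5, 61.8 and 59.9 in B cells. The groups were far apart, with an edgeR estimate of 1.83 ± 0.10 (log2 fold change and SE, adjusted p = 8.8e-12).

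Cox7b, another complex IV subunit, followed with a log2 fold change of 1.60 ± 0.10, at 176, 199 and 174 CPM in BMDC against 60.4, 57.6 and 62.7. Uqcr11, a small subunit of complex III, was higher by 1.55 ± 0.09 on the log2 scale, with 56.6, 64.1 and 57.0 CPM against 20.5, 20.6 and 19.6. The complex I accessory subunits Ndufc1 and Ndufa9 were each higher by 1.43 on that scale. None of these genes overlapped between the cell types. Among the core enzymes, the complex I subunits Ndufv1 and Ndufs1, which bind flavin and iron-sulfur clusters, were higher by 0.65 and 0.78 (log2). The complex III core protein Uqcrc1 was higher by 0.49, and the ATP synthase subunits Atp5a1 and Atp5b by 0.55 and 0.74 (log2).

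Cox7a2l, which links complexes III and IV in supercomplexes, went the other way. Its levels were 239.6, 235 and 211 CPM in BMDC and 374, 336 and 333 in B cells, a log2 fold change of -0.61 ± 0.12 (adjusted p = 0.00017) with no overlap. The other 5 nuclear genes lower in BMDC were Ndufs8 (-0.38), a core iron-sulfur subunit of complex I, the assembly factors Ndufaf4 (-0.35) and Ndufaf8 (-0.34), the complex III hinge protein Uqcrh (-0.32) and the complex I accessory subunit Ndufb11 (-0.32, log2 fold changes). The calls of Ndufaf4 and Ndufaf8 were each lost in 2 of the 6 fits that left out 1 library, at an adjusted p of up to 0.12 and 0.10.

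The 3 genes for the c-ring of ATP synthase, whose mature proteins are the same, behaved differently between the cell types. Atp5g1 and Atp5g3 were higher in BMDC by 1.18 ± 0.07 and 1.21 ± 0.09 (log2 fold change and SE), whereas Atp5g2 gave -0.07 ± 0.09 (adjusted p = 0.44). Atp5g2 measured 137, 135 and 127 CPM in BMDC and 137, 137 and 146 in B cells, so the groups overlapped. Atp5g3 was at 292, 323 and 298 CPM in BMDC against 128, 132 and 135.

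Among the mitochondrial genes, both ATP synthase genes were lower in BMDC. mt-Atp6 was at 622, 711 and 503 CPM in BMDC and at 1961, 1741 and 1451 in B cells, a log2 fold change of -1.49 ± 0.18 (adjusted p = 4.8e-07). mt-Atp8 gave -1.24 ± 0.19, mt-Nd2 -1.23 ± 0.19, mt-Nd3 -1.19 ± 0.17 and mt-Co3 -0.98 ± 0.17, and mt-Nd6, mt-Cytb, mt-Nd1 and mt-Nd5 were lower by smaller amounts, from -0.87 to -0.60. These 9 genes did not overlap between the cell types. The share of all genes without overlap was not counted here, and 40.6% of all genes tested were called lower. mt-Co1 (0.27 ± 0.19), mt-Co2 (0.20 ± 0.16), mt-Nd4 (-0.36 ± 0.18) and mt-Nd4l (-0.22 ± 0.34) were not called. With the nuclear copies added, an alternative chosen after seeing the data, the same 9 genes were lower and no other was called. Without B cell Control replicate 1, the library with the high mitochondrial sum, mt-Co1 was called higher in BMDC (0.53, adjusted p = 0.012) and mt-Nd5 was no longer called (adjusted p = 0.058).

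**Figure D3:**
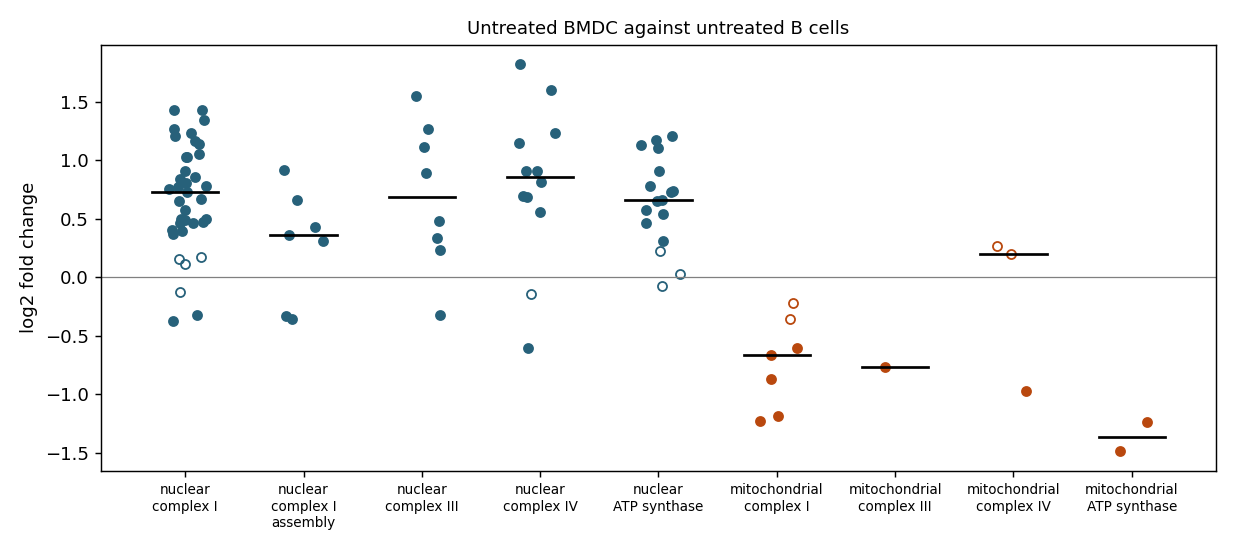
Log2 fold change of untreated BMDC against untreated B cells (positive is higher in BMDC), 1 point per gene grouped by genome and complex; filled points have an adjusted p under 0.05 and bars are medians. Nuclear medians lie between 0.36 and 0.86, and the mitochondrial complex IV genes are split, with mt-Co3 at -0.98 and the other two above 0.

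Genes around these complexes were counted from lists. These counts stand beside the 39.3% higher and 40.6% lower of all genes tested. Of 6 nuclear genes for complex II, cytochrome c (Cycs) and the complex III subunit cytochrome c1 (Cyc1), 5 were higher in BMDC and none lower, led by the membrane anchors Sdhd (2.13 ± 0.08) and Sdhc (1.62 ± 0.07, log2). Mitochondrial ribosomal proteins were higher for 56 of 78 and lower for 4, and other assembly factors higher for 15 of 24 and lower for 4. Regulators of mitochondrial transcription were lower for 11 of 18 and higher for 4. Tfam measured 28.8, 27.1 and 27.4 CPM in BMDC against 165, 161 and 144 in B cells, with no overlap (log2 fold change -2.50 ± 0.12). Ppargc1a, a coactivator of mitochondrial gene programs, was at 0.0466 to 0.0897 CPM in BMDC and at 1.98 to 2.74 CPM in B cells.

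Promoters of the nuclear genes were searched for motifs of factors known from respiratory chain genes. Of the 81 genes, 69 had an entry among the RefSeq promoters (GRCm38.p6), which span a window around the gene start. GCATGCGC, a core of the NRF1 site, was in 11 of the 69 (15.94%) and in 3.93% of 17491 protein-coding promoters, either strand counted. AAGATGGC, the YY1 motif, was in 11 (15.94%) against 3.57%, and CCGGAAGT, the motif of ETS factors such as GABPA, in 5 (7.25%) against 5.69%. A promoter of each kind is shown, from genes called lower in B cells given MSA2. Each runs 5′ to 3′ along the gene, with matches to its motif on either strand in capitals:
Atp5g2, chr15:102670998-102671297, minus strand: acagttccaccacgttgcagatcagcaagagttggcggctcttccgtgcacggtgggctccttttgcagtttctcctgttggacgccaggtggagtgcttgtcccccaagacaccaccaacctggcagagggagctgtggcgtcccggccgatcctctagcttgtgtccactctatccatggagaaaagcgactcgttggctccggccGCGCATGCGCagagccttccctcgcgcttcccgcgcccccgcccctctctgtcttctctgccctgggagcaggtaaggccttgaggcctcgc
Cox8a, chr19:7217567-7217866, minus strand: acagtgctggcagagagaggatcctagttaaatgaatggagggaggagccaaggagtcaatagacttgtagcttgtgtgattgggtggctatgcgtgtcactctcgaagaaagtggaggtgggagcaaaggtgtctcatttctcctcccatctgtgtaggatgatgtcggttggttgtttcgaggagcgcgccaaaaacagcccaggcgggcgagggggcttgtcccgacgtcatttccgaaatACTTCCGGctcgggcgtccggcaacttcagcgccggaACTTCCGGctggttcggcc
Ndufb8, chr19:44555393-44555692, minus strand: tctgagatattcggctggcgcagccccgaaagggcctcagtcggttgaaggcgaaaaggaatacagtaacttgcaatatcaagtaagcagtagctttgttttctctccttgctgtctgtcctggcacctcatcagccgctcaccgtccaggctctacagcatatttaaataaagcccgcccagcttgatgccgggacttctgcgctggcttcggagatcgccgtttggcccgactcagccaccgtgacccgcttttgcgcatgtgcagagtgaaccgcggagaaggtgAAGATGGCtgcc
Atp5g2 holds overlapping NRF1 matches on both strands, Cox8a holds 2 ETS matches on the reverse strand, and Ndufb8 holds the YY1 motif near the end of the window. Such a match is a description of the letters and does not show binding. Atp5md, the nuclear gene with the largest response below, had none of the 3 motifs in its window.

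In B cells, MSA2 alone was accompanied by lower nuclear and higher mitochondrial transcripts. Against Control, 24 of the 81 nuclear genes fell and none rose, where 18.5% of all 16180 genes tested fell and 24.9% rose. Of the 13 mitochondrial genes, 6 rose and none fell. The median log2 fold change was -0.21 for the nuclear genes, with 76 of 81 below 0, and 0.43 for the mitochondrial genes, beside -0.01 for all genes tested. These are the 3 libraries in which the B cell and dendritic cell lists were lower and the lists of other blood cells higher, as given above, and the part of that difference in these results was not tested. With raw library totals in place of TMM factors, 11 nuclear genes were lower and 1 higher, and 70.2% of all called genes were higher in place of 57.3%.

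The sums of the 81 nuclear genes were 5900, 4980 and 6341 CPM in the MSA2 libraries, all below the Control libraries. The mitochondrial sums were 34169, 38495 and 38424 CPM, all above Control replicates 2 and 3. Against Control replicate 1, at 34656 CPM, MSA2 replicates 2 and 3 were higher and MSA2 replicate 1 was lower. Without Control replicate 1, 15 nuclear genes were called and 8 mitochondrial genes. The nuclear count was 13 without Control replicate 2 and 13 without MSA2 replicate 2. Here and below, how many of all genes the fits without 1 library called is not given.

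The largest fall was that of Atp5md (chr19:47083464-47090647), a small membrane subunit of ATP synthase known to help its dimers form. Its levels were 107, 105 and 88.2 CPM in Control, 63.7, 48.8 and 62.6 with MSA2, and 75.3, 83.4 and 69.7 with both agents. The MSA2 libraries were below all others. The log2 fold change of MSA2 against Control was -0.78 ± 0.12 (SE, adjusted p = 0.00027).

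Atp5e, the epsilon subunit of the ATP synthase stalk, was at 137, 124 and 108 CPM in Control and 85.3, 76.8 and 95.9 with MSA2 (log2 fold change -0.52 ± 0.11, adjusted p = 0.0024). The groups did not overlap. Of the other ATP synthase genes, Atp5k, Atp5d and Atp5g2 fell by 0.39, 0.31 and 0.28 on the log2 scale (Atp5k with overlap). Atp5a1 (-0.07) and Atp5b (-0.10) were not called. The call of Atp5g2 was lost in 5 of the 6 fits without 1 library, at an adjusted p of 0.0067 to 0.092.

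In complex I, 10 of 37 genes fell. Ndufs8 (chr19:3908863-3912774) was at 56.0, 56.2 and 62.3 CPM in Control and 43.6, 35.4 and 45.8 with MSA2, without overlap (-0.48 ± 0.10, adjusted p = 0.0017). Ndufb4, an accessory subunit of the membrane arm, fell by 0.51 ± 0.11 on the log2 scale (adjusted p = 0.0028), from 13.3, 12.7 and 11.5 CPM to 9.17, 7.96 and 9.15. Its processed copy Ndufb4c, which shares 390 bases with it at 98% identity or more, was called too (-0.44), so reads of the pair may be divided. Ndufa11, Ndufa7, Ndufb8, Ndufb11, Ndufs4, Ndufb7 and Ndufs3 fell by 0.26 to 0.33, Ndufb8 with overlap. The core subunits Ndufv1 (-0.07) and Ndufs1 (-0.04) were not called.

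Complex III had the largest share called, 5 of 8 genes. Uqcrfs1, the Rieske iron-sulfur protein (chr13:30540308-30545362), was at 110.4, 112 and 120.4 CPM in Control and 95.6, 76.1 and 83.3 with MSA2, without overlap (-0.43 ± 0.10, adjusted p = 0.0066). Uqcrq, Uqcrb, Uqcr10 and Uqcrc2 fell by 0.34, 0.31, 0.24 and 0.23 on the log2 scale, and the core protein Uqcrc1 (-0.17) was not called. In complex IV, Cox8a and Cox5b fell, 2 of 12. Cox8a, a small structural subunit, was at 98.1, 95.3 and 98.6 CPM in Control and 80.97, 65.9 and 82.4 with MSA2, without overlap (-0.35 ± 0.09, adjusted p = 0.010). Of the 7 complex I assembly factors, Ndufaf8 (-0.45) and Ndufaf4 (-0.37) fell.

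Reads shared with similar genes could blur these values. Of the 81 nuclear genes, 35 share at least 100 bases at 98% identity or more with a transcript of another gene, a pseudogene in some cases, and 10 of these 35 fell, against 14 of the 46 without such a copy. The medians were -0.23 and -0.21.

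The mitochondrial genes that rose belonged to complexes I, III and IV. mt-Co2, the complex IV subunit that receives electrons from cytochrome c, was at 1156, 995 and 755 CPM in Control, 1634, 1878 and 1841 with MSA2, and 913, 1151 and 1181 with both agents. All 3 MSA2 libraries were above all others, with a log2 fold change against Control of 0.88 ± 0.16 (adjusted p = 0.00082). With the nuclear copy added it was 0.72 ± 0.17 (adjusted p = 0.0047), and the same 6 genes rose.

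mt-Nd4 rose by 0.69 ± 0.17 on the log2 scale (adjusted p = 0.0071), from 2295, 1519 and 1384 CPM to 2489.7, 3072 and 2814. mt-Co1, the catalytic subunit of complex IV, rose by 0.65 ± 0.19, from 11387, 7456 and 6742 CPM to 11811, 15107 and 13206. mt-Cytb, the electron carrier of complex III, rose by 0.55 ± 0.17, from 3679, 2671 and 2132 CPM to 3699, 4496 and 4223. These 3 did not overlap between the groups, though Control replicate 1 came close to the MSA2 libraries in each. mt-Nd2 (0.47) and mt-Nd6 (0.43) rose with overlap.

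The mitochondrial calls changed when a Control library was left out. Without Control replicate 2, or without replicate 3, 2 of the 13 genes rose. Over the 6 fits without 1 library, the log2 fold change of mt-Co1 ran from 0.50 to 0.91 (adjusted p up to 0.077), that of mt-Cytb from 0.38 to 0.78 (0.086), that of mt-Nd2 from 0.30 to 0.73 (0.17) and that of mt-Nd6 from 0.29 to 0.63 (0.14). mt-Atp6, mt-Atp8, mt-Nd1, mt-Nd3, mt-Nd4l, mt-Nd5 and mt-Co3 were not called.

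**Figure D4:**
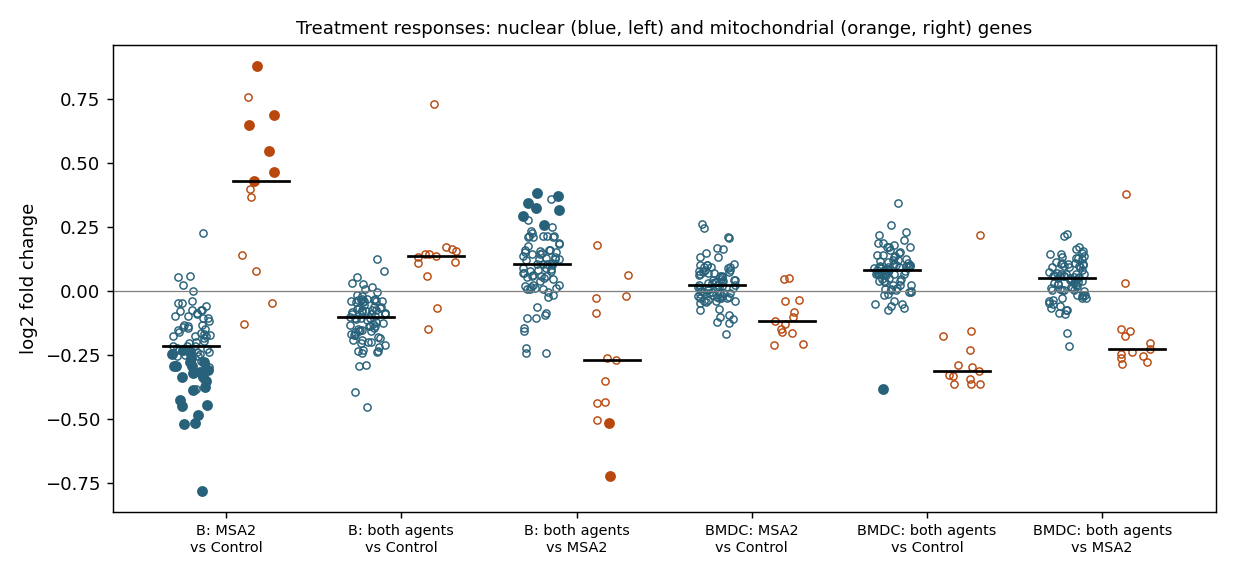
Log2 fold change in each treatment comparison, 1 point per gene, nuclear genes in blue and mitochondrial genes in orange; filled points have an adjusted p under 0.05 and bars are medians. In B cells given MSA2 the medians are -0.21 (nuclear) and 0.43 (mitochondrial); in BMDC given MSA2 no point is filled.

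Other genes of mitochondrial expression were counted beside them, where 18.5% of all genes fell and 24.9% rose. Mitochondrial ribosomal proteins fell for 36 of 78 and rose for 2 (median -0.26). Regulators of mitochondrial transcription fell for 7 of 18 and rose for 1, and genes of mitochondrial RNA handling fell for 5 of 14. Tfam fell from 173, 168 and 148 CPM to 131, 95.9 and 93.8 (-0.61 ± 0.13, adjusted p = 0.0037). Trmt10c, part of the enzyme that cuts tRNAs out of mitochondrial transcripts, fell by 0.85, and Fastkd2, which binds mitochondrial RNA, by 0.76. Of the mitochondrial ribosomal RNAs, mt-Rnr1 rose, from 622, 426 and 335 CPM to 1022, 804 and 961 (1.01 ± 0.19, adjusted p = 0.0011), and mt-Rnr2 gave 0.36 (adjusted p = 0.20).

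With MSA2 and IPI-549 together, no oxidative phosphorylation gene was called in B cells against Control, where 0.686% of all genes rose and 0.371% fell in the edgeR test. At an unadjusted p under 0.05 there were 9 nuclear genes and 1 mitochondrial gene, and DESeq2 and limma-voom called none of the 94 either. The mitochondrial gene was mt-Nd4l (0.73 ± 0.29, log2), which gave 0.22 ± 0.21 with its nuclear copy added. Here and below, counts at an unadjusted p are given without the share of all genes at that level. The medians were -0.10 for the nuclear and 0.14 for the mitochondrial genes. Atp5md gave -0.39 ± 0.12 (adjusted p = 0.22), and its 3 libraries lay below all 3 of Control.

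Both agents against MSA2 alone, which shares the MSA2 libraries with the first comparison, gave 7 nuclear genes higher and none lower, where 14.1% of all genes were higher and 22.9% lower. Of the mitochondrial genes 2 were lower and none higher. The 7 were Atp5md (0.38 ± 0.12), Ndufs8 (0.37 ± 0.10), Uqcrfs1 (0.35 ± 0.10), Atp5e (0.33 ± 0.11), Cox8a (0.32 ± 0.09), Atp5g2 (0.29 ± 0.09) and Ndufb11 (0.26 ± 0.09, log2 fold changes). Their adjusted p-values were 0.0096 for Ndufs8 and 0.019 to 0.037 for the others. mt-Co2 was lower by 0.72 ± 0.16 (log2 fold change -0.72, adjusted p = 0.0033) and mt-Nd4 gave -0.52 ± 0.17 (0.034). With the title number as a replicate block over all B cell libraries, Control included, 8 nuclear genes were higher and 3 mitochondrial genes lower. The added mitochondrial gene was mt-Co1 (-0.51, adjusted p = 0.048).

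With both agents, several of them had levels that overlapped with Control or came near it. Ndufs8 was at 54.3, 53.2 and 53.9 CPM, Cox8a at 104, 93.3 and 89.2 and Uqcrfs1 at 119.7, 109.8 and 94.5. Of the 7, Uqcrfs1 overlapped with the MSA2 libraries. The mitochondrial sums were 28466, 29257 and 28530 CPM, below all 3 MSA2 libraries and within the range of Control. The nuclear sums were 6370, 6295 and 6169 CPM, below all 3 Control libraries. MSA2 replicate 3, at 6341 CPM, lay within the range of these nuclear sums. Tfam was higher than with MSA2 alone by 0.76 ± 0.14 on the log2 scale, and mt-Rnr1 lower (-0.92 ± 0.19).

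With both agents the B cell markers summed to 9184 to 9930 CPM and the T cell markers to 50.6 to 58.5, against 9033 to 9670 and 62.9 to 85.6 in Control, so the comparison with MSA2 also crosses the marker difference, whose part was not tested. The count of nuclear genes changed when 1 library was left out. It was 1 without replicate 1 of both agents, 3 without its replicate 2, 3 (2 higher and 1 lower) without MSA2 replicate 2, and 16 without MSA2 replicate 3. How many of all genes those fits called is not given here. The mitochondrial count was 1 without MSA2 replicate 3 or without any 1 of the libraries with both agents. With raw library totals the nuclear genes were 1 higher and 3 lower, the mitochondrial genes 6 lower, and 22.1% of all called genes were higher in place of 38.1%.

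**Figure D5:**
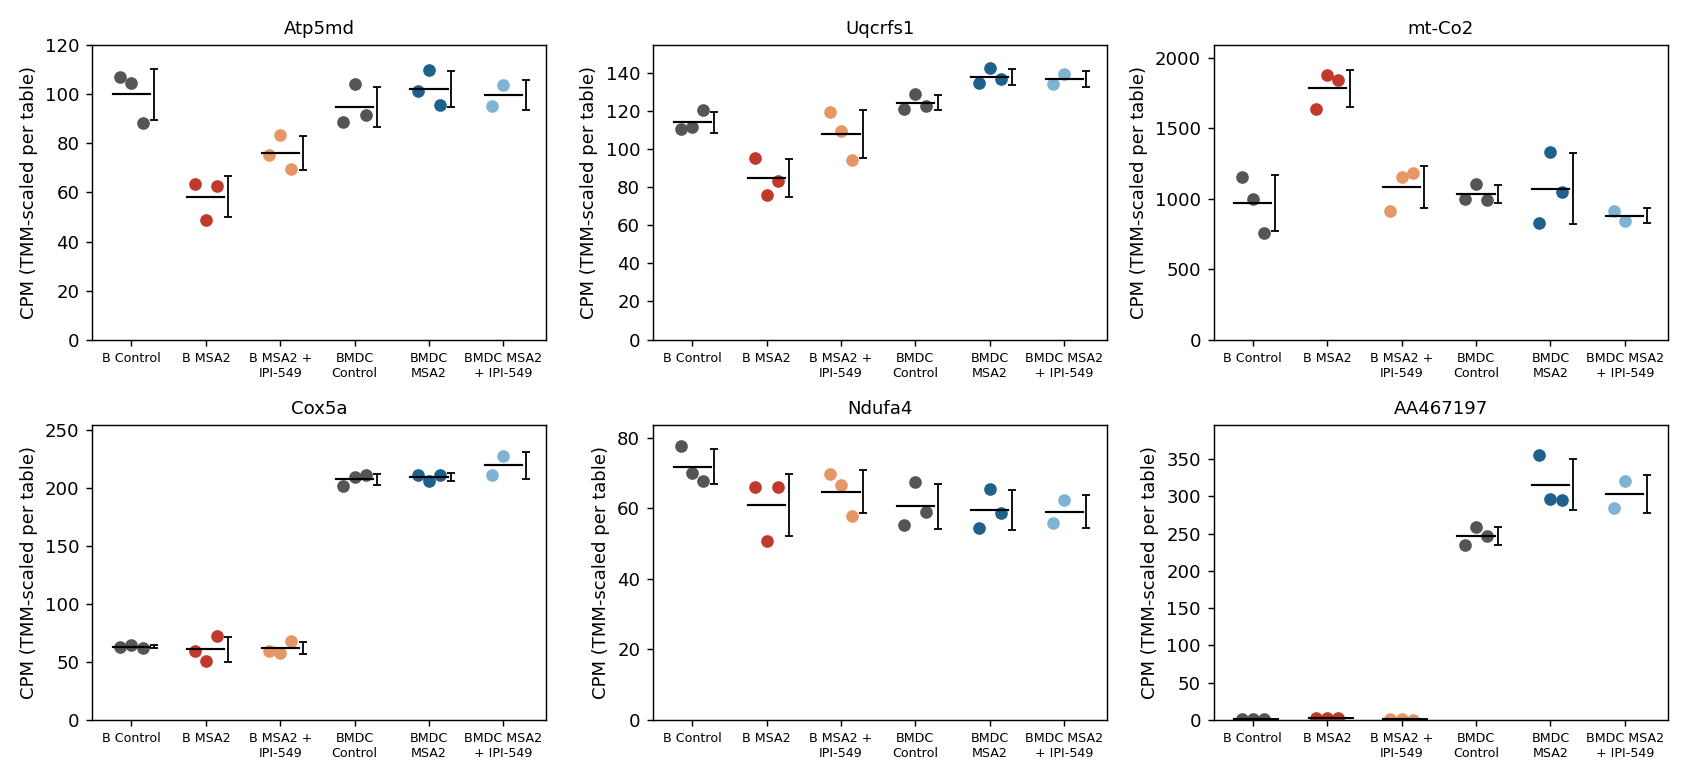
CPM (linear axes from 0, TMM-scaled within each cell type's table) of 6 genes, 1 point per library; short lines are group means and error bars SD (n = 3, or 2 for BMDC with both agents). In B cells the MSA2 libraries are lowest for Atp5md and highest for mt-Co2, while Cox5a and AA467197 separate the cell types. The cell types are on separate scales here, and the text gives Cox5a and AA467197 in Control on a joint scale.

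In BMDC, MSA2 left all oxidative phosphorylation genes uncalled. None of the 81 nuclear and 13 mitochondrial genes passed the edgeR test, where 14.6% of all 14614 genes tested rose and 13.5% fell. At an unadjusted p under 0.05 there were 5 nuclear genes and no mitochondrial gene, and DESeq2 called 1 nuclear gene. The median log2 fold changes were 0.03 and -0.12. The largest nuclear values were those of the assembly factor Ndufaf2 (0.26 ± 0.10, adjusted p = 0.075) and Uqcrh (0.21 ± 0.08, 0.055) among genes whose groups did not overlap. mt-Co1 was at 9686, 10517 and 8380.4 CPM in Control and 6376, 10683 and 8779 with MSA2, so the MSA2 libraries spanned the Control range.

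Some genes of the wider pathway did change in these libraries, where 14.6% of all genes tested rose and 13.5% fell. The genes named first come from the lists of assembly factors and of transcription regulators. How many of each list were called is not given here. Cox17, the copper chaperone of complex IV, rose by 0.55 ± 0.09 on the log2 scale (adjusted p = 0.0012). Tmem126b, a complex I assembly factor, fell by 0.76 ± 0.08, the mitochondrial helicase Twnk by 0.67 ± 0.09 and the mitochondrial RNA polymerase Polrmt by 0.45 ± 0.10. Tfam (0.03) was not called, and 4 of 78 mitochondrial ribosomal proteins rose and 1 fell.

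MSA2 with IPI-549 in BMDC gave 1 nuclear call against Control, where 7.51% of all genes rose and 5.38% fell. Ndufaf1 (chr2:119655446-119662827), an assembly factor of the complex I membrane arm, was at 11.3, 12.0 and 12.3 CPM in Control, 11.5, 10.4 and 9.86 with MSA2, and 9.41 and 8.83 with both agents. The 2 libraries with both agents were below all others (log2 fold change against Control -0.38 ± 0.10, adjusted p = 0.029). The call was lost in 4 of the 5 fits without 1 library, which gave an adjusted p of 0.049 to 0.21 over all 5. No mitochondrial gene was called in the edgeR test, 1 had an unadjusted p under 0.05, DESeq2 called 1, edgeR without a low-count filter called 9 and edgeR with the compared groups alone called 4. How many of all genes these alternative fits called is not given here. The mitochondrial median was -0.31, and 8 of the 13 had both libraries below all Control libraries, where 21.5% of all genes tested did. None of the 8 was called, among them mt-Cytb at 1271 and 1131 CPM against 1536, 1679.7 and 1414.

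Against MSA2 alone, no gene of the table was called in BMDC by edgeR (0% higher and 0% lower), so none of the 94 was. Of the 94, 5 nuclear genes and 1 mitochondrial gene had an unadjusted p under 0.05, while DESeq2 and limma-voom called none of the 94.

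The difference between the MSA2 responses of the cell types was tested directly. Of the 81 nuclear genes, 17 had a response that was higher in BMDC than in B cells and none the reverse, where 16.3% of all 17740 genes were higher and 20.7% lower. Of the 13 mitochondrial genes, 3 had a lower response in BMDC: mt-Co2 (-0.82 ± 0.23), mt-Nd4 (-0.81 ± 0.26) and mt-Co1 (-0.79 ± 0.27, log2 differences). The nuclear and the mitochondrial count were not far from the shares of all genes in their directions. Atp5md differed most among the nuclear genes, by 0.89 ± 0.15 (adjusted p = 9.0e-05). Its BMDC levels were 88.9, 104 and 91.5 CPM in Control and 101, 109.9 and 95.6 with MSA2. Ndufb4 (0.69), Atp5e (0.62), Uqcrfs1 (0.58) and Ndufs8 (0.57) followed. By complex the 17 were 8 of complex I, 1 assembly factor, 4 of complex III, 1 of complex IV and 3 of ATP synthase. The B cell response in each difference carries the marker difference of the MSA2 libraries. The nuclear count was 6 with raw library totals (5 higher and 1 lower), 6 without B cell MSA2 replicate 2, 9 without B cell Control replicate 2, BMDC Control replicate 1 or BMDC MSA2 replicate 2, 8 without BMDC Control replicate 3, and 37 without B cell MSA2 replicate 3. The mitochondrial count was 6 with raw library totals, 7 without B cell Control replicate 1, 5 without BMDC MSA2 replicate 2, and 1 without B cell Control replicate 2 or 3, B cell MSA2 replicate 2 or BMDC Control replicate 2. With the nuclear copies added, mt-Nd4l (-0.75) was called too.

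For both agents, no gene differed between the cell types in the edgeR test among the 94, where 2.14% of all genes were higher and 0.902% lower. At an unadjusted p under 0.05 there was 1 nuclear gene and 1 mitochondrial gene.

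The complex IV subunit Ndufa4 and its relatives were followed as a family, since AA467197, the mouse gene of C15orf48, encodes a protein known to take the place of Ndufa4 in inflamed cells. AA467197 (chr2:122636986-122641191) is outside the name rule. Scaled over both tables, it was at 243, 269 and 256 CPM in untreated BMDC and at 0.727, 1.28 and 1.204 in untreated B cells, a log2 fold change of 7.91 ± 0.22 (adjusted p = 2.6e-16). Within the BMDC table it rose from 235, 258 and 247 CPM in Control to 356, 297 and 295 CPM (0.36 ± 0.08, adjusted p = 0.0086), without overlap, and it was at 285 and 321 with both agents (0.30 against Control, not called).

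In B cells AA467197 was at 2.37, 2.76 and 2.84 CPM with MSA2 and at 0.779, 0.802 and 0.220 with both agents. The log2 fold change was 1.26 ± 0.36 for MSA2 against Control (adjusted p = 0.014) and -2.14 ± 0.38 for both agents against MSA2. In the first, the call was lost in 1 of the 6 fits without 1 library (adjusted p = 0.056). The monocyte and macrophage markers moved with it in these libraries, and their part was not tested. Ndufa4 itself was at 74.3, 67.5 and 66.1 CPM in untreated B cells and 57.2, 70.2 and 61.1 in untreated BMDC, and it was called in none of the comparisons. Ndufa4l2, the relative known from hypoxic cells, reached at most 0.0865 CPM in any library.

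The tissue isoforms of complex IV were near 0 beside their common partners. Cox4i1 was at 240.1 to 369 CPM in B cells and 441 to 550.3 in BMDC, while Cox4i2 reached at most 0.197 CPM. Cox6a2, Cox6b2, Cox7a1 and Cox8b reached at most 0.788, 1.54, 2.65 and 0.0219 CPM in any library, and Cox6a1, Cox6b1, Cox7a2 and Cox8a were at 29.1 CPM or more in all of them. Cox6b2 and Cox6a2 rose with MSA2 in B cells, by 1.996 and 1.81 on the log2 scale (adjusted p = 0.00088 and 0.015), where the libraries were at 0.678 to 1.54 and 0.456 to 0.788 CPM against 0.262 to 0.337 and 0.131 to 0.240 in Control.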

How the data were processed

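Values deposited by the authors are expected counts, which RSEM 1.3.3 computes by dividing reads that match several genes. Per the submitters' processing notes, cutadapt 4.8, STAR 2.7.8a, FastQC 0.11.8 and MultiQC 1.20 were used with GRCm38; strand and annotation release are not given in the sources used here. The treatment label reads Control in all samples, so the titles gave the groups. Values were rounded to whole numbers before use.

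For each table, edgeR 4.0.16 under R 4.3.3 used TMM factors, the default low-count filter and the quasi-likelihood F test over all 3 groups, and the cell types were compared in 1 fit of all 6 groups. Calls needed an adjusted p (Benjamini-Hochberg, over all genes of the table) under 0.05; SE is the log2 fold change divided by the square root of F. CPM use TMM-scaled totals, of 1 table or, between cell types, of both. Named genes were all mitochondrial genes, per comparison up to 5 called nuclear genes in each direction with the largest fold change, and a fixed set of isoforms and core subunits; the others called are listed after their values were seen. Members and lists were chosen with earlier results of these data known. Positions and transcript identities come from GENCODE M21, promoters from RefSeq. Alternatives were other scaling factors and low-count filters, DESeq2 1.42.0, limma-voom (limma 3.58.1), a minimum fold, the compared groups alone, a replicate block, each library left out and, added later, counts of nuclear copies merged into mitochondrial genes. Library totals were 34760025 to 73166643 counts, and counting error was not compared with the spread between libraries. Title numbers were not used to pair libraries in the main fits. Between B cells given MSA2 and both agents, the deviations of all 3 same-numbered pairs correlated above 0.1 (0.12 to 0.26). This comes from the data, not the labels, and pairs with different numbers were not compared. The replicate block was fitted over all groups of a table.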

Additional observations from a re-analysis of the deposited data

Results flagged for a closer look

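The MSA2 response differed between the cell types, by the test of the difference itself, for 17 of 81 nuclear genes (all higher in BMDC) and 3 of 13 mitochondrial genes (all lower), where 16.3% of all genes tested were higher and 20.7% lower. Both counts were not far from the share of all genes in their direction, though no nuclear gene was lower and no mitochondrial gene higher. Leaving out 1 library moved the nuclear count between 6 and 37. Given as the BMDC response minus the B cell response on the log2 scale, the named nuclear genes were Atp5md (0.89), Ndufb4 (0.69), Atp5e (0.62), Uqcrfs1 (0.58), Ndufs8 (0.57), Cox8a (0.35) and Atp5g2 (0.33), all with a lower response in B cells. The mitochondrial genes were mt-Co2 (-0.82), mt-Nd4 (-0.81) and mt-Co1 (-0.79), with a higher response in B cells. AA467197 (-0.90), Cox6b2 (-2.36) and Cox6a2 (-2.18) also differed, Cox6b2 and Cox6a2 at levels of at most 1.54 CPM. The markers of other blood cells that were high in the B cell MSA2 libraries move with all of these differences, and their part was not tested.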

How the results depend on the processing

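Of 342 recomputed counts of called genes, 275 stayed within 1.5 times the reported count, and of 5818 values of single named genes 5555 kept their side of the threshold, 150 lost a call, 113 gained one and none of the called genes changed sign. The cause of the changes below was not tested. Many of the counts below stand without the number of all genes called under the same setting.

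In B cells given MSA2 (24 nuclear and 6 mitochondrial genes), raw library totals gave 12 nuclear genes, glmTreat at 1.5-fold gave 0 and 0, and the compared groups alone gave 3 mitochondrial genes. Leaving out 1 library gave 13 to 34 nuclear and 2 to 8 mitochondrial genes. For both agents against MSA2 (7 and 2), upper quartile factors gave 12 nuclear genes, raw totals 4 and 6, glmTreat 0 and 0, and no filter, DESeq2 and the compared groups alone 5 mitochondrial genes each, and leaving out 1 library 1 to 16 and 1 to 2. In BMDC given MSA2 (0 and 0), RLE, upper quartile factors and DESeq2 gave 1 nuclear gene each, scaling without mitochondrial genes 2, no filter 1 and 2, and leaving out 1 library 0 to 1 nuclear genes. In BMDC given both agents (1 and 0), glmTreat and a minimum of 20 CPM gave 0 nuclear genes, and leaving out 1 library 0 to 1. Mitochondrial genes there were 9 without a filter, 4 with the compared groups alone, and 1 each with upper quartile factors, raw totals, the strict filter and DESeq2. For both agents against MSA2 in BMDC, no filter gave 3 mitochondrial genes.

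For the difference between the MSA2 responses (17 and 3), upper quartile factors gave 11 nuclear genes and raw totals 6 and 6. Mitochondrial genes were 8 without a filter and 5 each with the strict filter, DESeq2 and limma-voom, and leaving out 1 library gave 6 to 37 and 1 to 7. In that difference, raw totals moved the share of called genes that were higher from 44.1 to 29.7%. In BMDC, upper quartile factors moved it from 52.0 to 36.7% for MSA2 and from 58.3 to 47.2% for both agents. Raw totals moved the median of all genes from -0.04 to -0.18 for the difference between the MSA2 responses and from 0.01 to -0.11 for both agents against MSA2 in B cells, and upper quartile factors moved it from -0.07 to -0.18 between untreated cell types. Over all genes, glmTreat called 2837 in place of 7016 for MSA2 in B cells, 64 in place of 171 for both agents, 2614 in place of 5985 between them, and in BMDC 772 in place of 4118 and 427 in place of 1883. For both agents in B cells, no filter called 359, DESeq2 391 and the replicate block 260. For both agents against MSA2 in BMDC, where no gene was called, no filter called 561, DESeq2 162, the compared groups alone 13 and limma-voom 3. For the difference between the responses to both agents, no filter called 818 and DESeq2 888 in place of 539.

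Deviations of libraries that share a title suffix had correlations of -0.04 to 0.26 in B cells (3 of 9 pairs above 0.1, all 3 of them between MSA2 and both agents) and -0.11 to 0.13 in BMDC (1 of 7), and the labels tie no suffix to an animal. With the suffix as a replicate block, B cells gave 28 nuclear and 7 mitochondrial genes for MSA2 and 8 and 3 for both agents against MSA2, while BMDC gave 1 and 1 for MSA2 and 0 nuclear genes for both agents against Control. For both agents against MSA2 in B cells, mt-Co1 was the one named gene whose call the block changed. Genes under 1 CPM, such as Cox6a2 and Ppargc1a in BMDC, rest on few counts in each library.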
